A study of Mus musculus with 4 samples.

Results

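Foxr2 binding was examined at 9 genes of myelin and mature oligodendrocytes, out of 21911 protein-coding genes of the mouse annotation (GENCODE M21, build mm10, the same as GRCm38). The genes were chosen by name, with earlier results of these data known. They are the myelin protein genes Mbp, Mobp, Cnp, Mag, Mog and Cldn11, the transcription factor gene Myrf, and Enpp6 and Bcas1, which mark oligodendrocytes that have just begun to differentiate. For each gene, all peaks in the gene body or the 10 kb on either side were collected. A peak was taken as a promoter peak where it overlapped the stretch within 1 kb of a protein-coding transcript start, and as distal otherwise. CUT&RUN releases and sequences the DNA near an antibody, here one against the V5 tag that the Foxr2 vector carries. The Foxr2 p53LOF neurosphere line (overexpressed Foxr2 with loss of p53 function) was assayed in 2 replicates, as was a V5 control, namely another line that has the genotype H3.3G34R and no V5 tag. All 4 samples were fixed with formaldehyde (0.1%, 1 minute) before the assay. Both lines came from brain tumor models made by in utero electroporation of C57BL/6J embryos. The lines differ in genotype as well as in the tag, so that these cannot be told apart, and nothing in the sources says whether the replicates were separate cultures.

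Oligodendrocytes wrap axons in myelin. Their progenitors divide and migrate, and on leaving the cell cycle they start Myrf, a membrane-bound transcription factor that is cut free, enters the nucleus and turns on the myelin protein genes together with Sox10 and Olig2. Mbp and Mobp lie on the inner face of compact myelin, Cldn11 forms the tight junctions between its layers, Mog is on the outermost layer, Mag faces the axon and Cnp keeps cytoplasm between the layers. Foxr2 is a forkhead-box protein that is normally silent in most tissues.

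Of the 9 genes, 6 had a reproducible Foxr2 site (Mbp, Cnp, Cldn11, Mog, Myrf and Bcas1) and 3 had none (Mag, Mobp and Enpp6), where 50.0% of all protein-coding genes had one. The regions held 17 sites, of which 11 were distal, against 34.6% of all sites. The sequences of 6 of them are shown because they carry the binding that lay outside start sites, or, for Cnp site 2, the 1 own-promoter site with both summits within 1 kb of a start. Each is the plus strand of GRCm38, 201 bp centered on the summit of replicate 1, and none overlaps an annotated protein-coding exon. In the first 5, the capitals run from the summit of one replicate to that of the other, and so mark how closely the replicates placed the binding.
Cldn11 site 3, downstream of the gene, chr3:31166862-31167062: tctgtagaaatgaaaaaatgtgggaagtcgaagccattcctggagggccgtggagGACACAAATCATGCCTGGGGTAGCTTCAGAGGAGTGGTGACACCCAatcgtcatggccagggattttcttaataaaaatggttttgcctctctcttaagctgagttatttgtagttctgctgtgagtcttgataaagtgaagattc
Cldn11 site 1, upstream of the gene, chr3:31146254-31146454: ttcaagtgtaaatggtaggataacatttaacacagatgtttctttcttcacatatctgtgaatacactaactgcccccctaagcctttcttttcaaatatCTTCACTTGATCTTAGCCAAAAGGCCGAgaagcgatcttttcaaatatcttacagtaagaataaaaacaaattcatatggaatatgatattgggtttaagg
Myrf site 2, in an intron, chr19:10232897-10233097: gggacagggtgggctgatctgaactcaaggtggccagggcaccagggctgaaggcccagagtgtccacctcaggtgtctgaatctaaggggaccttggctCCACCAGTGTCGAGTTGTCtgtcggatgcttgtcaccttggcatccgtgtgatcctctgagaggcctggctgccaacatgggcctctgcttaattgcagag
Cnp site 2, in an intron near the start, chr11:100575268-100575468: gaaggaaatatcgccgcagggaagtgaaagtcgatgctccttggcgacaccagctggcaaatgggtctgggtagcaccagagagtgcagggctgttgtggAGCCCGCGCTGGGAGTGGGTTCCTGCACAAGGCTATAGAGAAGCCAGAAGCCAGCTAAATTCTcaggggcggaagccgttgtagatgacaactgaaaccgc
Cnp site 3, in an intron, chr11:100581994-100582194: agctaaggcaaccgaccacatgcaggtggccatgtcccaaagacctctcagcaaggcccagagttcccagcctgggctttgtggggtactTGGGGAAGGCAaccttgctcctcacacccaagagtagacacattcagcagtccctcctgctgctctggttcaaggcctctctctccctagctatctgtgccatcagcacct
In the next, upstream of Cnp in an intron of Ttc25, the summits lay 325 bp apart, and the capitals mark a forkhead word (TGTTTAC), a SOX word (ACAATGG) and an ETS word (CAGGAAG).
Cnp site 1, upstream of the gene, chr11:100570779-100570979: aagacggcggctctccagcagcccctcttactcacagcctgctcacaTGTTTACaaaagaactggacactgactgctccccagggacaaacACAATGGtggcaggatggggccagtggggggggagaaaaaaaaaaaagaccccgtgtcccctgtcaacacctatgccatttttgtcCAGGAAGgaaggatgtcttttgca

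Sites were called reproducible where peaks of both Foxr2 p53LOF replicates overlapped after the filter of the study. That filter removes peaks that overlap a control peak by at least 10 bp, that have a fold of 6 or less or a −log10 q of 6 or less, or that are 10000 bp or longer. The fold is the ratio of the fragments at the summit plus 1 to the background of the same library plus 1. The Foxr2 p53LOF libraries held 31909 and 38580 peaks and the V5 control libraries 308 and 124. To exceed a fold of 6, a summit needed 13 fragments in replicate 1 or 18 in replicate 2. The intervals given for folds are exact Poisson 95% intervals and cover counting error only, since reads without molecular identifiers are not independent molecules. With 2 replicates against 2, an exact permutation test cannot reach 0.05, so values are described without a test. The Foxr2 gene had 1 peak in each Foxr2 p53LOF replicate, with folds of 5.74 and 6.24, and 0 in the controls. That line also carries Foxr2 sequence on the vector, and the part of the vector in these peaks was not tested.

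No control peak lay in any of the 9 gene regions, before or after a minimum fold of 6. The Foxr2 p53LOF libraries had 31 peaks there in replicate 1 and 35 in replicate 2. A fold above 6 was reached by 17 and 18 of these, or 54.8% and 51.4%, against 42.5% and 39.0% of all peaks in the respective lists. Every peak above that fold also passed the rest of the filter. Most of the peaks were distal: 24 of 31 in replicate 1 and 27 of 35 in replicate 2 before the minimum, and 11 of 17 and 12 of 18 after it. Over all peaks of the lists, 63.4% and 68.8% were distal before the minimum and 37.8% and 41.4% after it. Promoter peaks of the genes themselves numbered 5 and 6 before and 4 and 4 after, and each replicate had 2 peaks at the promoter of another gene, all above the minimum.

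Before the filter, 6 of 9 genes had overlapping peaks of both replicates, against 62.6% of all protein-coding genes, and 8 of 9 had a peak of at least 1 replicate, against 69.3%. After it, the same 6 genes had a reproducible site (66.7%), against 50.0% of all genes. A site at the gene's own promoter was found for 4 of 9 (Mbp, Cnp, Cldn11 and Bcas1), against 39.2%. A distal site was found for 6 of 9, against 11.0%. Mog and Myrf had a distal site but none at their own promoter, a pattern found in 4.45% of all genes, and Mbp, Cnp and Cldn11 had 3 sites or more, as 5.65% of all genes did. The distance from all genes was thus largest for distal sites, whereas the count at promoters was near the genome-wide share. That count rests on overlap with the promoter: with both summits required within 1 kb of a start it was 1 of 9 (Cnp), against 36.5% of all genes. With a shared stretch of at least 50% of each peak it was 2 of 9, against 36.1%, and with a fold above 10 it was 2 of 9, against 19.7%. The distal count also fell under stricter rules: with a fold above 10 it was 3 of 9 (Mbp, Cldn11 and Myrf, with 3 distal sites), against 3.46% of all genes, and in the gene body alone 3 of 9 (Mbp, Cnp and Myrf, with 5), against 6.63%. The 9 genes are too few for these shares to carry more than that, and no test was run on them.

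Long genes offer more room for a distal site, and the regions of Mbp, Enpp6 and Bcas1 were in the longest of 4 equal bins of all gene regions. In that bin, 21% of genes had a distal site, and Mbp and Bcas1 did while Enpp6 did not. Cnp, Mag, Mog and Cldn11 were in the second bin, with regions of 26.5 to 37.4 kb, where 8.29% of genes had one, and of these 4 all but Mag did. Myrf and Mobp were in the third bin, where 10% of genes had one, and Myrf did while Mobp did not. Over the 9 regions together, 605 kb, there were 1.82 distal sites per 100 kb, against 0.224 over all gene regions. By class, 64.7% of the sites near these genes were distal, against 34.6% of all 11943 reproducible sites.

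**Figure D1:**
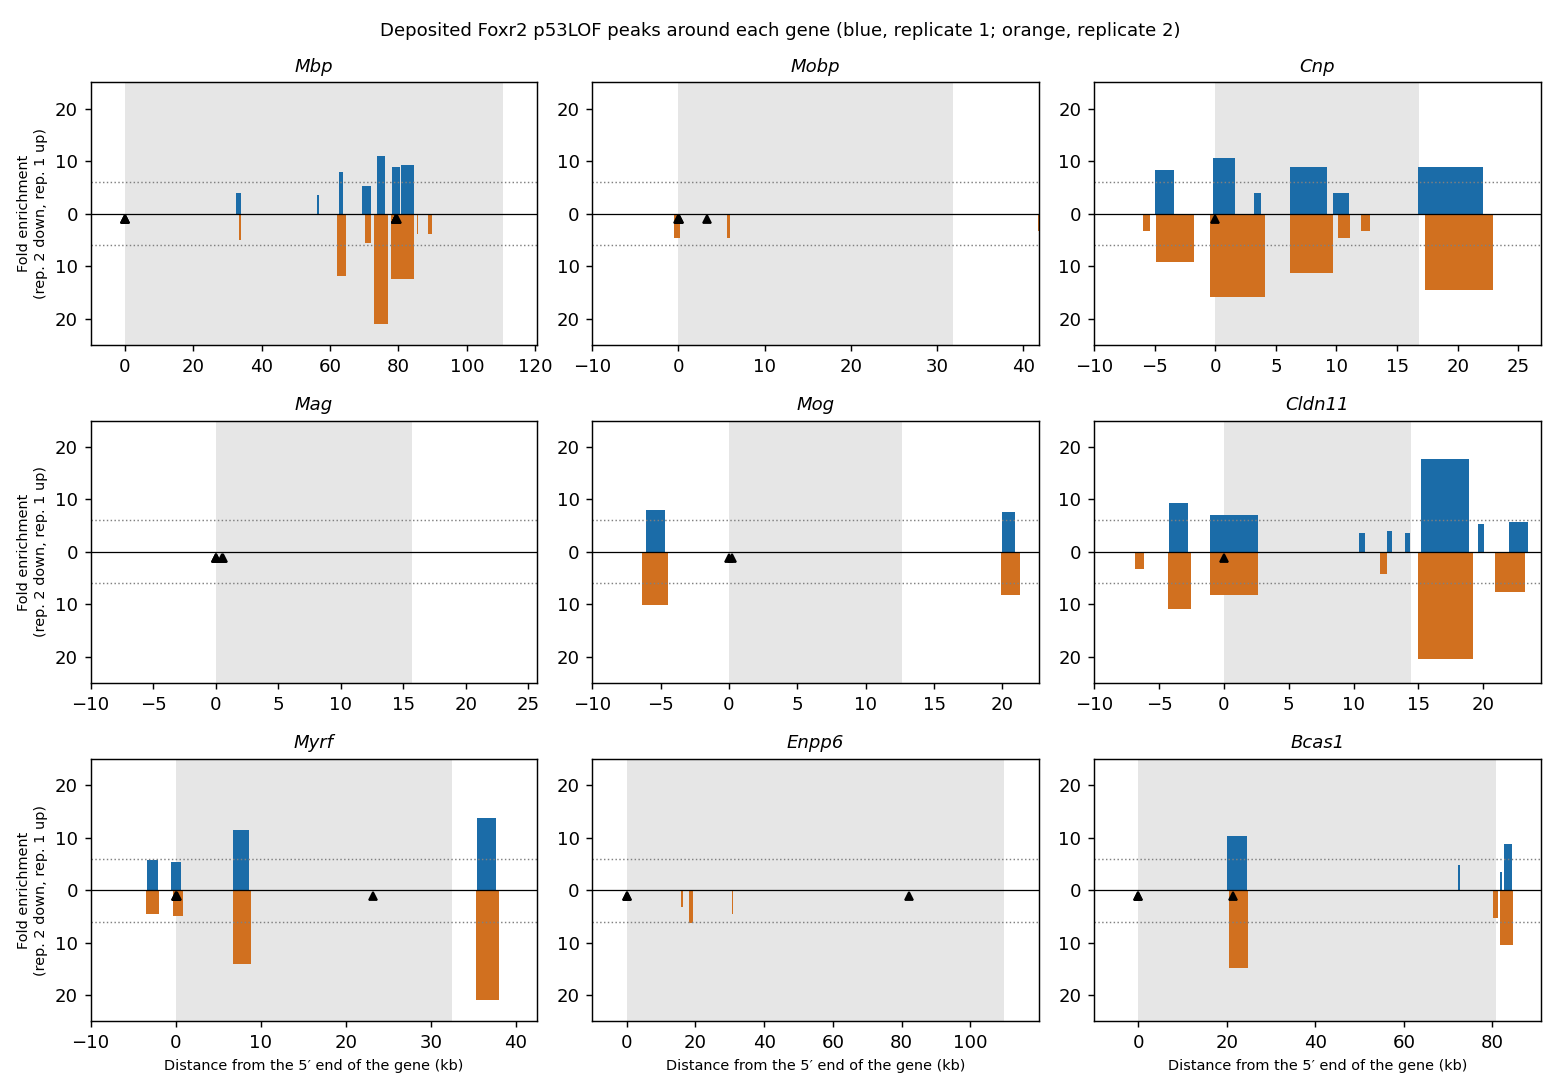
Deposited Foxr2 p53LOF peaks around each of the 9 genes, by distance from the 5′ end of the gene in kb along its direction of transcription. Bars span each peak, with the fold of replicate 1 drawn upward and that of replicate 2 downward, the grey area is the gene body, triangles are protein-coding starts and dotted lines mark the fold of 6. At Mog and Myrf every peak has a partner in the other replicate, at Mbp, Cnp, Cldn11 and Bcas1 the peaks above 6 do and some lower ones do not, while Mag is empty and Mobp and Enpp6 have peaks of replicate 2 only.

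Mbp (ENSMUSG00000041607.17, chr18:82475146-82585637, plus strand) encodes myelin basic protein. The long Golli transcripts start at 82475146 to 82475162, where neither replicate had a peak, and the classic myelin transcripts start far downstream, at 82554470 to 82554580. All 4 sites lay near or upstream of the classic starts, inside introns of the Golli transcripts or in the first part of the classic ones. Site 1 (chr18:82537646-82539041) was intronic and distal, with folds of 7.95 and 11.8 in replicates 1 and 2. Site 2 (chr18:82548819-82551068), also intronic, had the highest folds at this gene, 11.0 and 21, from 24 and 63 fragments, with its summits 4610 and 4560 bp upstream of the nearest classic start. The promoter site 3 (chr18:82553270-82555607) had folds of 8.84 and 12.5, and the distal site 4 (chr18:82555991-82559782) had 9.28 and 12.5. Sites 3 and 4 were separate peaks in replicate 1 but a single peak of 6800 bp in replicate 2, so the value of replicate 2 is the same peak for both. Its summit lay 1282 bp past the nearest start, and that of replicate 1 at site 3 lay 335 bp past. At site 2 the fold of replicate 2 was 1.90 times that of replicate 1, a ratio above 97.8% of those over all sites, and the counting intervals met without overlapping (16.22 and 16.23).

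Cnp (ENSMUSG00000006782.16, chr11:100574904-100591729, plus strand) encodes a nucleotide phosphodiesterase of non-compact myelin, and it also had 4 sites. Site 2 (chr11:100574736-100576557) covered its single annotated protein-coding start, with folds of 10.6 (95% interval 6.88 to 15.7) and 15.8 (11.7 to 20.9). Its summits were 464 and 526 bp past the start, in an intron, and it was the only promoter site of the 9 genes with both summits within 1 kb of a start. Across the genome, 93.0% of promoter sites had both summits within 1 kb of a start. Cnp site 1 (chr11:100569996-100571543) lay in an intron of the neighboring Ttc25, with its replicate 1 summit 4025 bp upstream and folds of 8.39 and 9.20. Site 3 (chr11:100581064-100584142) lay in an intron of Cnp, with folds of 8.84 and 11.2 and with summits 10 bp apart, the smallest gap among the 17 sites. Site 4 (chr11:100592182-100596968) lay in an intron of Dnajc7, its replicate 1 summit 3449 bp past the end of Cnp, with folds of 8.84 and 14.5. Cnp was thus flanked as well as entered by sites, and the flanking ones fell inside neighboring genes.

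Cldn11 (ENSMUSG00000037625.7, chr3:31149920-31164324, plus strand) encodes claudin 11 and had the distal site with the highest lower fold of the group. Site 3 (chr3:31165104-31168792) had its replicate 1 summit 2638 bp past the end of the gene, outside protein-coding genes. It had a fold of 17.7 (12.7 to 24.0) from 39 fragments in replicate 1 and of 20.4 (15.7 to 26.1) from 61 in replicate 2, and its lower fold was above 96.3% of all distal sites. This was the clearest single site near the 9 genes, with intervals far above the minimum in both replicates. Site 1 (chr3:31145717-31147150), with the replicate 1 summit 3566 bp upstream, had folds of 9.28 and 10.8. The window printed for it holds, on the minus strand, a run of 33 bases identical to Rnu2-10, a U2 small nuclear RNA gene, and runs of at least 20 bases shared with 27 annotated snRNA genes in all. It was the 1 of the 17 windows with such a run, which 0.226% of the windows at all sites had, and the part of these copies in the folds of Cldn11 site 1 was not tested. Site 2 (chr3:31148864-31152560) overlapped the Cldn11 start, with folds of 7.07 and 8.21. Its summits, however, were 2138 and 2117 bp past the start in an intron.

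Mog (ENSMUSG00000076439.12, chr17:37010743-37023398, minus strand) encodes myelin oligodendrocyte glycoprotein. No peak touched the gene body in either replicate. Site 2 (chr17:37028071-37029445) lay upstream, its replicate 1 summit 5421 bp from the gene and outside protein-coding genes, with folds of 7.95 and 10.2. Site 1 (chr17:37002445-37003407), downstream of Mog, was at the start of Zfp57, an imprinting regulator, with folds of 7.51 and 8.21. Their lower folds were above 48.6% of all distal and 20.4% of all promoter sites, respectively.

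Myrf (ENSMUSG00000036098.15, chr19:10208272-10240748, minus strand) is the regulator of the myelin genes. Its intronic site 2 (chr19:10232064-10233958) had folds of 11.5 (7.59 to 16.7) and 14.1 (10.3 to 19.0), with summits 18 bp apart at 7.61 kb past the nearest start, and its lower fold was above 81.8% of distal sites. At the Myrf start itself both replicates had a peak, with folds of 5.30 and 4.93, and a further pair upstream had 5.74 and 4.60. All of these were below the minimum, so that the own promoter of Myrf held signal in both replicates but no site. Site 1 (chr19:10203080-10205341) had folds of 13.7 and 21 but lay at the shared promoter of Fen1, which encodes a DNA repair nuclease, and Tmem258, with its replicate 1 summit 4217 bp past the end of Myrf.

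Bcas1 (ENSMUSG00000013523.13, chr2:170346991-170427845, minus strand) marks early myelinating oligodendrocytes. Its main starts, at 170427828 and 170427845, had no peak in either replicate. Site 2 (chr2:170403254-170407405) counted as a promoter site through an internal start at 170406509 of a transcript outside the basic annotation. Its folds were 10.2 and 14.8, and the summits lay 2315 bp apart, that of replicate 2 at 96 bp from the internal start and that of replicate 1 at 2411 bp. Site 1 (chr2:170343456-170345259) lay downstream, the replicate 1 summit 2639 bp beyond the gene, and reached 8.84 and 10.5. Neither site was at a start that yields the main Bcas1 transcripts.

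**Figure D2:**
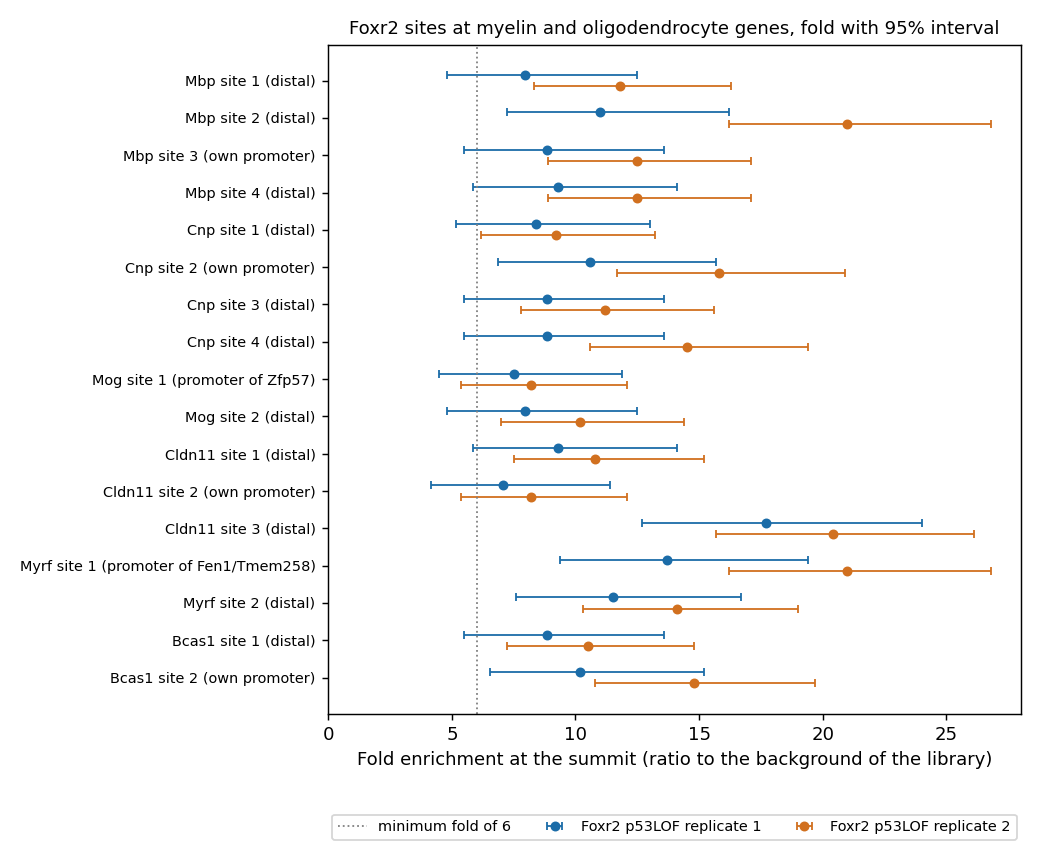
Fold at the summit of each of the 17 sites (horizontal axis, ratio to the background of the library) in Foxr2 p53LOF replicate 1 and replicate 2, with exact Poisson 95% intervals as bars. Cldn11 site 3 is high in both replicates, with 17.7 and 20.4, and Mbp site 2 is the 1 site whose intervals do not overlap.

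Mag (ENSMUSG00000036634.15, chr7:30899176-30914873) had no peak in any of the 4 libraries, and the edge of the nearest reproducible site was 40.9 kb away at the promoter of Usf2, with folds of 7.51 and 11.2. Mobp (ENSMUSG00000032517.16, chr9:120149707-120181484) had 3 peaks in replicate 2, none above 4.60, including one of 4.60 at its promoter, and 0 in replicate 1. Its nearest site was 21.2 kb away at the promoter of Rpsa, a ribosomal protein gene (8.84 and 12.5). Enpp6 (ENSMUSG00000038173.15, chr8:46986887-47096762), which encodes a choline phosphodiesterase, had 3 peaks in replicate 2 and 0 in replicate 1. One of these, intronic and distal, reached 6.24 and passed the filter in that replicate alone. Its nearest reproducible site was 121 kb away, at the promoter of Stox2 (10.2 and 13.1). At these 3 genes binding was not detectable in both replicates at a depth where the lowest peak held 6 fragments in replicate 1 and 8 in replicate 2.

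Several peak pairs lay close to the minimum fold of 6. Just inside it were Cldn11 site 2 (7.07 and 8.21) and Mog site 1 (7.51 and 8.21). Just outside it were a peak pair downstream of Cldn11 (5.74 and 7.56), a pair in an intron of Mbp (5.30 and 5.59) and the pairs upstream of Myrf (5.74 and 4.60) and at its start (5.30 and 4.93).

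Among the sites of the whole genome, those near these genes were of moderate height. The median of the lower folds was 8.84 for the 11 distal sites, against 7.95 for all distal sites, and 9 of the 11 were above that value. At the 4 own-promoter sites it was 9.52, against 9.72 for all promoter sites, with 2 of 4 above. Replicate 2 was higher at all 17 sites, as at 75.1% of all sites, with ratios from 1.09 to 1.90 and a genome-wide median of 1.16. At 16 of the 17 sites the intervals of the replicates overlapped. The summits of the replicates were within 100 bp of each other at 10 of 17.

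**Figure D3:**
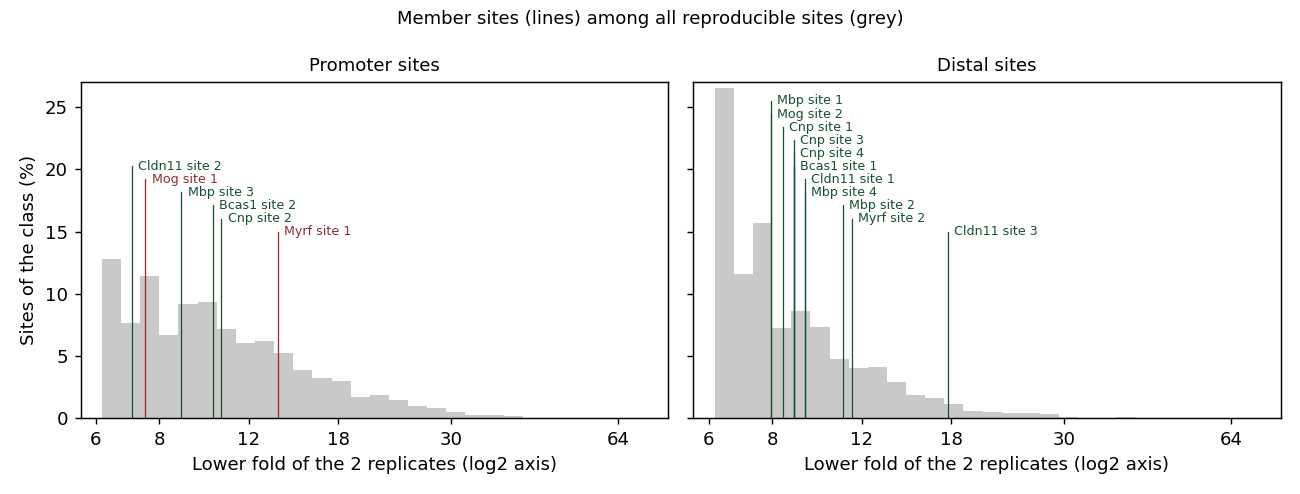
Distribution of the lower fold of the 2 replicates (log2 axis) over all reproducible promoter sites and distal sites, as percent of sites of the class in grey, with the sites near the 9 genes as labelled vertical lines whose heights carry no value. Red lines are sites at the promoter of another gene, and Cldn11 site 3 stands in the upper tail of the distal sites.

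The promoters of these genes differ in CpG content, and over all genes a promoter site was more frequent where CpGs were many. CpG dinucleotides were counted in the 300 bp from 250 bp before to 50 bp after each start, and the highest count was taken for a gene. From the lowest to the highest of 4 bins of genes, 2.27%, 26.8%, 62.1% and 70.6% had a site at their own promoter. Mobp, Mog and Enpp6, with 4 or 5 CpGs, were in the lowest bin, and 0 of 3 had a promoter site. Mag (6), Bcas1 (11) and Cnp (13) were in the next, and Bcas1 and Cnp had one. Mbp and Cldn11 (24 each) were in the third and had one, although the 24 CpGs of Mbp are at a Golli start without a peak and its classic starts have 11 to 13. Myrf, with 44, was in the highest bin without one. Distal sites varied less over the same bins, from 3.94% to 16.0% of genes. In base composition, the 201 bp windows of the 11 distal sites had a median GC content of 52.7%, against 47.3% for all distal and 61.2% for all promoter sites, and 1 to 6 CpGs with a median of 3, the same median as all distal sites.

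**Figure D4:**
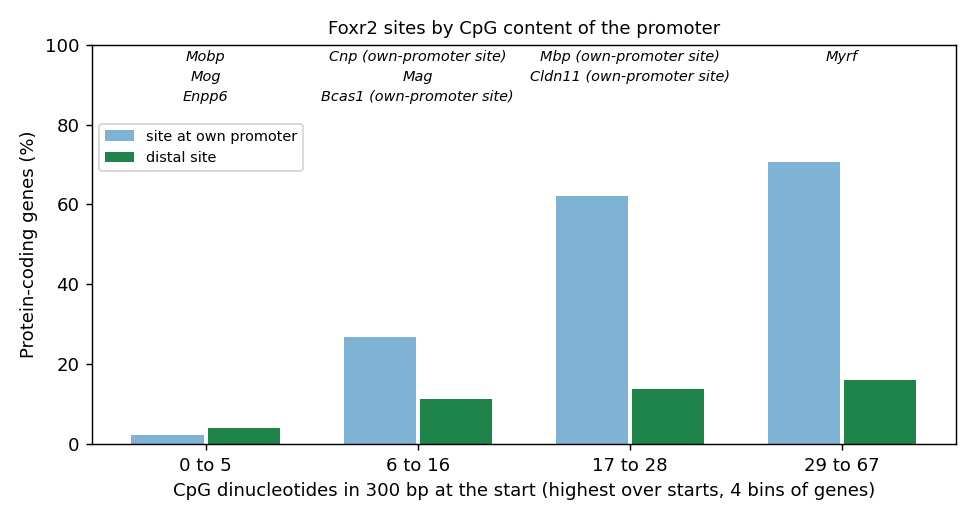
Percent of protein-coding genes with a reproducible Foxr2 site at their own promoter or a distal site (bars), by 4 bins of the highest CpG count in 300 bp at the start. The names of the 9 genes stand above their bin, and the share of genes with an own-promoter site rises from 2.27% to 70.6%.

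Sequence words of factors of this lineage were counted on both strands in the 201 bp windows of the 17 sites. A SOX word (ACAAAGG or ACAATGG) was in 2, Cnp site 1 and Mbp site 3, against 5.84% of all sites (8.05% of distal ones), and an OLIG E-box word (CCATCTG or CCATATG) was in 2, Cldn11 site 1 and Mbp site 1, both distal, against 5.66% of distal and 3.63% of all sites. In the printed window of Cldn11 site 1 it reads catatgg, 76 bp from the summit. The forkhead word TGTTTAC (3.05% of distal and 2.10% of all sites) and the ETS word CAGGAAG (9.72% and 7.44%) were each in Cnp site 1 alone, where the SOX word was 6 bp from the summit of replicate 1. The ETS word CCGGAAG (3.87%) and the MYRF words CTGGCAC and CTGGTAC (4.97%) were in none. Most of the 17 windows, the strongest site at Cldn11 included, held none of these words. Each word was in at most 7.44% of all sites, so most windows over the genome lack them as well.

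In the wider set of 43 other genes of myelin and maturing oligodendrocytes, the shares with any site and with an own-promoter site were close to those of the 9 genes, and the share with a distal site was lower (37.2% against 66.7%, not tested). A site was found for 29 (67.4%), at the own promoter for 21 (48.8%) and at a distal position for 16 (37.2%), against 50.0%, 39.2% and 11.0% of all genes. Among 16 further myelin or paranode protein genes 11 had a site, among 5 myelin lipid enzyme genes 2, among 6 transcription factors of differentiation 5, and among 16 markers of maturing oligodendrocytes 11. At promoters the highest lower folds were at Adamts4, a secreted protease gene (20.8 and 20.7), Ndrg1 (13.3 and 16.1), the zinc finger factor gene Zfp24 (12.8 and 19.7) and Ugt8a, which makes the myelin lipid galactosylceramide (11.0 and 10.8). The highest distal ones were at Adamts4 (18.1 and 21) and at the tetraspanin genes Cd9 (17.7 and 25.6) and Tspan2 (11.9 and 11.2).

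Of 15 oligodendrocyte progenitor genes, 14 (93.3%) had a site and 9 (60.0%) a distal one, led by Cspg4 and Lhfpl3, each with a lower fold of 16.8, and by Tnr with 13.7. Of 15 astrocyte and radial glia genes, 11 (73.3%) had a site and 3 a distal one. The share of genes with a distal site was thus 66.7% for the 9 myelin genes, near the progenitor genes and above the astrocyte genes, and these differences were not tested. The median gene region was 51.8 kb for the 9 genes, 54.8 kb for the progenitor genes and 29.8 kb for the astrocyte genes, against 38.6 kb for the 43 other myelin genes and 37.4 kb for all genes. The astrocyte genes had shorter regions than all genes and a higher share with a distal site, but that share rests on 3 of 15 genes. The part of region length in these shares was not tested. Bcan, a progenitor gene, and Nes, a radial glia gene, are neighbors and share a distal site (9.28 and 9.86), which counts in both lists.

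**Figure D5:**
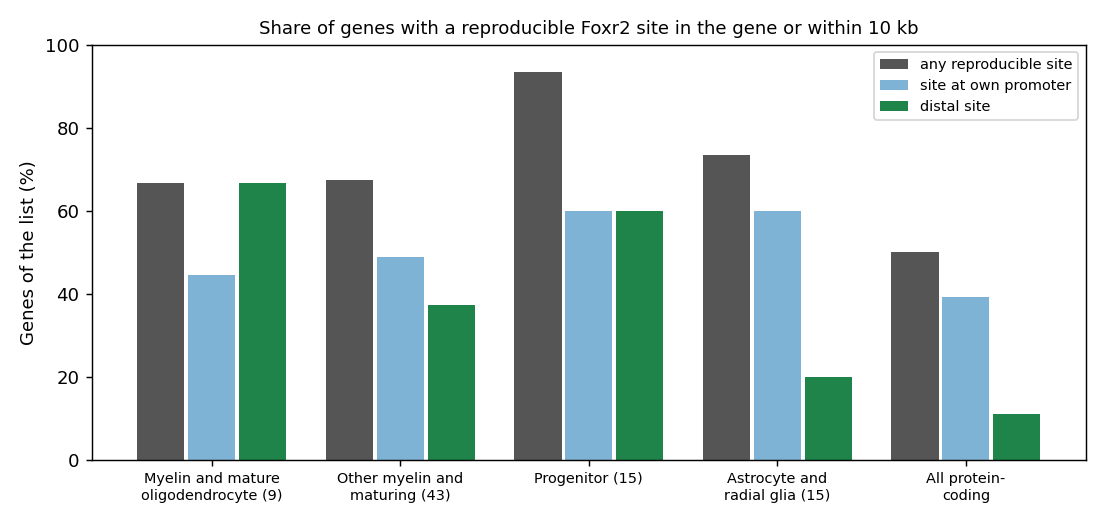
Percent of genes (vertical axis) with any reproducible Foxr2 site, a site at their own promoter or a distal site, for the 9 myelin and mature oligodendrocyte genes, the other lists and all protein-coding genes, with the number of genes in parentheses. Distal sites reach 66.7% of the 9 genes and 11.0% of all genes, while own-promoter sites differ less between the lists.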

How the data were processed

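CUT&RUN libraries with a V5 antibody from 2 Foxr2 p53LOF and 2 V5 control samples were analysed as deposited peak lists. The authors trimmed reads with Trimmomatic (0.39), aligned them to mm10 with BWA (0.7.17), removed duplicates with Picard (2.26.6) and called peaks library by library with MACS2 (2.2.7.1). The deposited fold is the ratio that the authors obtained from MACS2, of fragments at the summit plus 1 over background plus 1. The deposited −log10 p-value and −log10 q-value come from the same caller, and the deposited score is a whole number made from the q-value. The lists hold no read totals. The background of each library was recovered as the value that turns folds up to 30 into whole fragments (within 0.02) whose Poisson p matches the deposited one, which gave the fragments at each summit.

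Peaks were filtered and intersected as described above, with a shared stretch of at least 1 bp, without the study's further intersection with open chromatin from single nuclei, which was not used here, in Python 3.11.15 with pandas 2.3.3, scipy 1.17.1 and pysam 0.24.0. The recovery of the background and the intersection were tested on simulated data, but the filter was not. Sequence came from GRCm38.p6. The genes and lists were chosen with earlier results of these data known. All 9 genes were named, and of the other lists at most the 5 highest promoter and 3 highest distal genes. Alternatives covered the filter, the overlap, the region, the promoter window and each replicate left out. Promoters called from summits and sites at other genes' promoters left out were added after the data were seen. Sequence of the Mbp sites is not reported here.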

Additional observations from a re-analysis of the deposited data

How the results depend on the processing

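Of 67 alternative values for the main counts, 59 stayed within 1.5 times the count reported. Part of these could not change. The gene regions held no control peak, and every peak above the minimum fold passed the rest of the filter. The settings on control overlap, control replicates and length therefore had to return the same counts. A minimum fold above 10 lowered the sites from 17 to 6, the distal sites from 11 to 3 and the genes with an own-promoter site from 4 to 2, and Mog lost its sites. Requiring the shared stretch to be at least 50% of each peak left 2 genes with an own-promoter site, and calling promoters from the summits of both replicates, chosen after seeing the data, left 1, Cnp. The gene body alone held 9 sites, 5 of them distal, while 50 kb on either side held 27. Leaving out a replicate gave 6 to 7 genes with a site (Enpp6 is added by replicate 2 alone), 4 to 4 with an own-promoter site, 17 to 18 sites, 11 to 12 distal sites, 6 to 8 genes before the filter and 0 control peaks. Of 41 values of the highest lower fold at single genes, 35 moved by no more than the SD between the replicates of that gene, Cnp among them (10.6 to 8.84 with that overlap rule). The other 6 moved by more, all without replicate 1. Folds of replicate 2 were higher at every site, so leaving out replicate 2 returned the lower fold itself. Leaving out replicate 1 had to move it by more than the SD of the 2 values. Neither setting is therefore a test of stability. No paired analysis was possible because the results come from no test. A peak list shows only called peaks, so a gene without one can still have fragments below the level of a call.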
